A study of Mus musculus with 36 samples.

Results

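The regenerating (Reg) family of the mouse was followed through 30 intestines and 6 fibroblast cultures in which caspase-8 and its partners had been altered. The 5 members described, Reg1, Reg3a, Reg3b, Reg3g and Reg4, were taken by symbol from the 52636 genes of the count tables. The family was chosen by measured values: Reg3g had the largest rise of any tested gene when D387A Cflar Mlkl intestines were compared with Mlkl intestines. That comparison therefore chose the family, and its values are given below as a description without a test. Reg2 and Reg3d, the remaining genes of the mouse family in the same gene cluster, are given beside the members.

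RNA sequencing was performed on intestines of embryos at E18.5 and on primary mouse embryonic fibroblasts (MEFs), with 3 embryos or cultures for each of 12 groups. The animals were on a C57BL/6N background, and no treatment was applied. The D387A change removes the site at which caspase-8 separates its own catalytic subunits (autoprocessing-deficient), whereas caspase-8 C362A is catalytically dead. Cflar encodes cFLIP, the partner of caspase-8, and Mlkl encodes the pore-forming effector of necroptosis.

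The D387A set held 6 genotypes. Its controls lacked Mlkl alone (here Mlkl), and a second group carried the Casp8 D387A knock-in with Cflar and Mlkl intact (D387A). The knock-in was next combined with loss of both Cflar and Mlkl (D387A Cflar Mlkl). Casp1, the inflammatory caspase gene, was removed in addition in a further genotype (D387A Cflar Mlkl Casp1). The last pair lacked Ifnar1, a chain of the type I interferon receptor (D387A Cflar Mlkl Casp1 Ifnar1), or Fadd, the adaptor that brings caspase-8 into its complexes (D387A Cflar Mlkl Casp1 Fadd). The C362A set held its own Mlkl controls, the Casp8 C362A knock-in without Mlkl (C362A Mlkl), the same without Casp1 (C362A Mlkl Casp1) and the knock-in without Cflar and Mlkl (C362A Cflar Mlkl). MEFs were either Mlkl or D387A Cflar Mlkl. All groups but D387A lacked Mlkl, so a difference between D387A and Mlkl intestines also contained the difference in Mlkl, and the effects cannot be told apart.

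Several features limited these groups. The Cflar and Mlkl deletions of the D387A line came from electroporated zygotes through 1 mosaic founder, and the Cflar deletion of the C362A line from injected zygotes. These deletions removed only parts of Cflar and Mlkl, so reads of either gene do not check the genotype. The genotypes of the D387A set other than Mlkl and D387A Cflar Mlkl carry different leading numbers in their titles; if those mark separate runs, run and genotype cannot be told apart. The 2 sets and the MEFs were scaled separately, and levels from different sets are given side by side only. Depth was 17943524 to 27721024 gene reads per library in the D387A set, 21757868 to 31052238 in the C362A set and 20927014 to 32307629 in the MEFs. Casp1 was at 0 to 0.212 CPM (a read count normalised to library size) in the groups lacking Casp1 and 42.6 to 124 CPM in the other intestines. Fadd reads were 0.659 to 1.01 CPM in intestines without Fadd and 25.5 to 50.5 CPM in the others, while Ifnar1 reads were 33.2 to 37.9 CPM in Ifnar1-deficient intestines and 76.1 to 103 CPM in the other intestines. The summed CPM of 8 epithelial markers (Epcam, Cdh1, Krt8 and others) was 3785 to 6292 in the intestines and 40.5 to 67.7 in the MEFs.

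Reg genes encode small secreted C-type lectins. Reg3b and Reg3g are bactericidal lectins of the intestinal epithelium, made mainly by enterocytes and Paneth cells and induced by IL-22 through STAT3 and by MyD88-dependent signals from microbes. Reg1, Reg2 and Reg3a are also made by the exocrine pancreas and Reg1 by the stomach, whereas Reg4 is made by secretory and enteroendocrine cells of the gut.

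Reg1, Reg2, Reg3a, Reg3b, Reg3d and Reg3g lie together on mouse chromosome 6 (GRCm38), in 98.2 kb from 78370657 to 78468872, and Reg4 lies apart from them on chromosome 3 at 98222156 to 98236748. In that order along chromosome 6 came Reg3b (ENSMUSG00000071356, 78370657 to 78373466), Reg3d (78375874 to 78378865), Reg3a (ENSMUSG00000079516, 78380709 to 78383827), Reg2 (78395623 to 78408106), Reg1 (ENSMUSG00000059654, 78422711 to 78428667) and Reg3g (ENSMUSG00000030017, 78466269 to 78468872). The identifier of Reg4 was ENSMUSG00000027876. The 250 bases before the RefSeq start of Reg3b, Reg3g and Reg3a are shown, read toward the gene, because these 3 genes of the cluster moved together in both sets of intestines. Capitals mark TTCNNNGAA, the letters that STAT factors are known to bind, and TATAAA, on either strand.
Reg3b, chr6:78370635-78370884 (+ strand): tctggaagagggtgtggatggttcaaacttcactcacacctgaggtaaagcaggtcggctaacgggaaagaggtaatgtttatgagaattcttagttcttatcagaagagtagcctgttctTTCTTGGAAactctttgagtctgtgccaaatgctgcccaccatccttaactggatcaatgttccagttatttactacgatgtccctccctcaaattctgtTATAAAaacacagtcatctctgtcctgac
Reg3g, chr6:78468875-78469124 (- strand): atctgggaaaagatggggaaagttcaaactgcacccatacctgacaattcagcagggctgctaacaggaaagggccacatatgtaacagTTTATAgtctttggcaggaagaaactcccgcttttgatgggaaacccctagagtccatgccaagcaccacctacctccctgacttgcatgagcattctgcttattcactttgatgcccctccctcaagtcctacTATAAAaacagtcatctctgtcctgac
Reg3a, chr6:78380459-78380708 (+ strand): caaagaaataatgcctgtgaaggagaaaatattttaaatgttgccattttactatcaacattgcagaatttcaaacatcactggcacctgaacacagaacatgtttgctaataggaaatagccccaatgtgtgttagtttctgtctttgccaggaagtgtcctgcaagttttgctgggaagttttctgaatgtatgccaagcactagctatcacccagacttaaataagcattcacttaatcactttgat
TTCNNNGAA was found once in the window of Reg3b, 129 bases before the start, and in 7.02% of all 32851 RefSeq promoter windows of this length. Of the 7 family windows 2 held it, the other being that of Reg3d, 238 bases before its start. TATAAA stood 29 bases before the start of Reg3b and 27 bases before that of Reg3g, which had another match on the opposite strand at 161 bases; 12.4% of all windows and 4 of the 7 family windows (also Reg1 and Reg2) held these letters. Neither was matched in the window of Reg3a. The windows of Reg3b and Reg3g were 70.0% identical, whereas the other 20 pairs among the 7 family genes were 50.8 to 61.2% identical. A match is a description of letters and not of a bound site.

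Reg3b was the most abundant member of the family wherever the family was high. Levels are given as reads per kilobase of exon, normalised to scaled library size (RPKM), in the order of embryos 1, 2 and 3. Reg3b stood at 45.7, 27.4 and 34.9 in Mlkl intestines and at 14462, 12672 and 11844 in D387A Cflar Mlkl intestines. All 3 D387A Cflar Mlkl embryos were above all 3 controls, and Reg3b then ranked first of all genes in each of them, by RPKM and by reads. The log2 fold change was 8.49 ± 0.53 (SE), or 361-fold. In whole intestines, fewer or more cells of a type and less or more RNA per cell cannot be told apart. Reg3g stood at 5.17, 3.41 and 4.15 in Mlkl and at 6737, 6912 and 5633 in D387A Cflar Mlkl intestines, where it was the second gene by RPKM in every embryo. Its log2 fold change was 10.56 ± 0.65, or 1511-fold. In this comparison 22.2% of the 18360 genes tested were called, where called means an adjusted p below 0.05 with a log2 fold change beyond 1 in either direction. Since the comparison chose the family, nothing is read from the 3 of 5 members above that threshold (Reg3a, Reg3b and Reg3g), beside 9.4% of all genes called higher and 12.8% called lower.

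**Figure D1:**
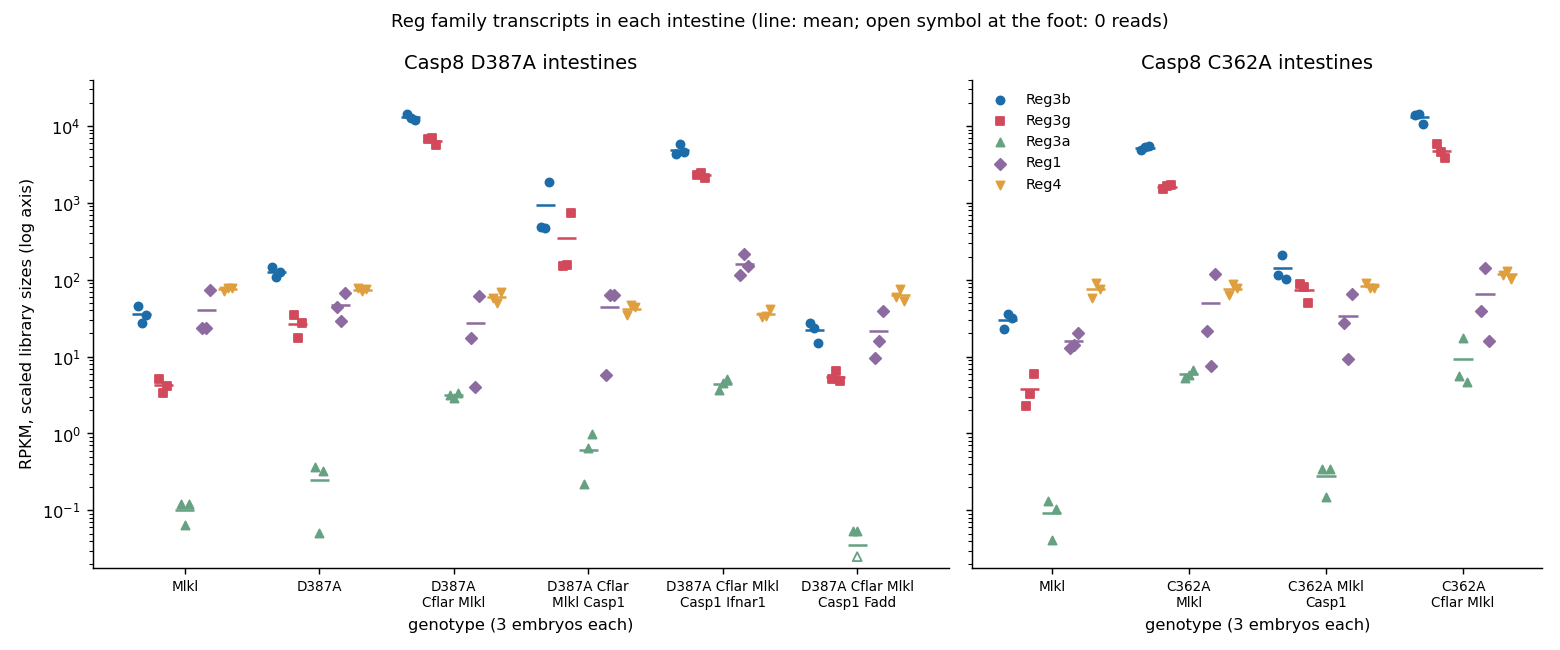
RPKM of the 5 Reg genes in each intestine on a log axis, with 3 embryos per genotype and a line at the mean; an open symbol at the foot stands for 0 reads. Reg3b and Reg3g reach 11844 to 14462 and 5633 to 6912 in D387A Cflar Mlkl intestines, Reg1 scatters within genotypes, and Reg4 stays between 32.6 and 131.

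Intestines with D387A alone had intermediate levels of both lectins. Reg3b stood at 147, 109 and 128 RPKM and Reg3g at 35.2, 17.4 and 27.1, above every Mlkl embryo in each case. edgeR's quasi-likelihood test gave log2 fold changes of 1.83 ± 0.40 for Reg3b and 2.64 ± 0.51 for Reg3g, with adjusted p (Benjamini-Hochberg over all genes tested) of 0.711 and 0.446. No member was called here, beside 0.00545% of all genes. At an unadjusted p below 0.05, Reg3b and Reg3g passed, beside 921 of the 18360 genes tested. The Mlkl libraries of this set took part in the comparison that chose the family, so every test against them shares these controls with it. DESeq2 called 1 member (Reg3g, adjusted p 0.00171), beside 0.0163% of all genes. edgeR called both when no filter on low counts was applied, when only these 2 genotypes were fitted or when the Mlkl controls of both sets were pooled (adjusted p 6.74e-05 to 0.00313), beside 0.0422%, 0.041% and 0.0153% of all genes. The call thus depended on the fit. Reg3b and Reg3g ranked 18th and 5th from the top of the 18360 log2 fold changes.

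Loss of Casp1 from D387A Cflar Mlkl intestines lowered Reg3b and Reg3g without returning them to the level of Mlkl intestines. Reg3b stood at 489, 471 and 1852 RPKM in D387A Cflar Mlkl Casp1 intestines. The third embryo was well above the others, and all 3 lay between the Mlkl and the D387A Cflar Mlkl embryos. Reg3g stood at 153, 158 and 744, again with the third embryo high. Against D387A Cflar Mlkl intestines, Reg3b fell by 3.79 ± 0.42 (adjusted p 1.62e-06) and Reg3g fell by 4.19 ± 0.48 (adjusted p 1.96e-06) on the log2 scale; these p-values share the D387A Cflar Mlkl libraries with the comparison that chose the family. Against Mlkl intestines, Reg3b stayed 26.0-fold higher (log2 4.70 ± 0.45, adjusted p 5.27e-06) and Reg3g 82.7-fold higher (log2 6.37 ± 0.56, adjusted p 2.09e-06). In the first comparison Reg3b and Reg3g were called lower, beside 13.4% of all genes called, 8.88% higher and 4.51% lower. In the second, which shares its Mlkl controls with the comparison that chose the family, both were called higher, beside 4.34% of all genes called, 2.16% higher and 2.18% lower.

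The third D387A Cflar Mlkl Casp1 embryo stood apart from the others of its group in other genes too. Its Mlkl reads were 46.1 CPM against 6.27 and 7.46 in the other embryos of the group, its summed goblet markers 3287 against 1735 and 1656, and its summed macrophage markers 709 against 447 and 427. Elsewhere in the set Mlkl reads were 4.78 to 5.35 CPM in Mlkl and 22.2 to 26.9 CPM in D387A Cflar Mlkl embryos. They were 45.8 to 55.9 CPM in the Ifnar1-deficient and 55.4 to 62.6 CPM in the Fadd-deficient embryos. On these reads the third embryo was thus near the Ifnar1-deficient group, and the others of its group were nearer Mlkl. The part of these differences in the Reg values was not tested. Without that embryo, the log2 difference from Mlkl intestines was 3.74 ± 0.22 for Reg3b and 5.19 ± 0.23 for Reg3g, and that of Casp1 loss was -4.76 ± 0.26 and -5.37 ± 0.25. Both lectins kept their calls in both comparisons.

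Additional loss of Ifnar1 raised the lectins again. In D387A Cflar Mlkl Casp1 Ifnar1 intestines, Reg3b stood at 4307, 5767 and 4644 RPKM and Reg3g at 2310.4, 2440.5 and 2084. Every embryo exceeded every D387A Cflar Mlkl Casp1 embryo and fell short of every D387A Cflar Mlkl embryo. Relative to D387A Cflar Mlkl Casp1, Reg3b rose 5.23-fold (log2 2.39 ± 0.40, adjusted p 7.26e-04) and Reg3g 6.48-fold (log2 2.70 ± 0.45, adjusted p 6.91e-04). Both were called higher, beside 5.31% of all genes called, 3.28% higher and 2.03% lower. Without the third D387A Cflar Mlkl Casp1 embryo, the log2 differences were 3.35 ± 0.24 and 3.87 ± 0.23. Against Mlkl intestines, Reg3b was 136-fold higher (log2 7.09 ± 0.50, adjusted p 4.22e-08) and Reg3g 536-fold higher (log2 9.07 ± 0.61, adjusted p 2.98e-08), and Reg1, Reg3b and Reg3g were called higher and Reg4 lower, beside 12.4% of all genes called, 6.76% higher and 5.64% lower.

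Additional loss of Fadd had the opposite result. Reg3b stood at 27.3, 23.4 and 15.2 RPKM and Reg3g at 5.05, 6.50 and 4.84 in D387A Cflar Mlkl Casp1 Fadd intestines. Reg3g overlapped with the Mlkl embryos, whereas Reg3b lay below all of them, the nearest values being 27.3 and 27.4. Relative to D387A Cflar Mlkl Casp1, Reg3b fell by 5.41 ± 0.46 (adjusted p 3.00e-06) and Reg3g fell by 6.01 ± 0.54 (adjusted p 4.00e-06) on the log2 scale, the fourth and the second lowest of 18360 fold changes. Without the third D387A Cflar Mlkl Casp1 embryo the log2 differences were -4.45 ± 0.23 for Reg3b and -4.83 ± 0.22 for Reg3g. Reg3b and Reg3g were called lower, beside 3.44% of all genes called, 2.56% higher and 0.877% lower. Against Mlkl intestines, edgeR called 0 of the 4 members Reg1, Reg3b, Reg3g and Reg4, beside 3.78% of all genes called, 2.81% higher and 0.975% lower, and 0 passed at an unadjusted p below 0.05, beside 5711 of the 18360 genes. The log2 differences were -0.71 ± 0.40 for Reg3b (adjusted p 0.243) and 0.36 ± 0.54 for Reg3g (adjusted p 0.701), and none of these 4 was called by limma-voom, DESeq2 or any other fit that was run.

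The catalytically dead caspase-8 gave high lectin levels in the second set with Cflar present. Reg3b stood at 23.2, 35.9 and 31.3 RPKM in Mlkl, at 4805, 5384 and 5532 in C362A Mlkl, at 114, 210.1 and 103 in C362A Mlkl Casp1 and at 14012, 14239 and 10576 in C362A Cflar Mlkl intestines. The 4 genotypes did not overlap. Reg3g stood at 2.29, 3.30 and 5.88 in Mlkl, at 1518, 1661 and 1708 in C362A Mlkl, at 89.3, 79.7 and 50.3 in C362A Mlkl Casp1 and at 5786, 4579.7 and 3783 in C362A Cflar Mlkl, again without overlap. These libraries took no part in the comparison that chose the family, but earlier results of these data were known when its members were listed.

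Between C362A Mlkl and Mlkl intestines Reg3b was 174-fold higher (log2 7.44 ± 0.37, adjusted p 1.97e-09) and Reg3g 429.8-fold higher (log2 8.75 ± 0.39, adjusted p 9.82e-10). Both were called higher, beside 18% of the 19408 genes tested called, 10.4% higher and 7.55% lower. Loss of Casp1 in this background lowered Reg3b and Reg3g: the log2 differences were -5.20 ± 0.33 (adjusted p 1.20e-07) and -4.48 ± 0.32 (adjusted p 2.84e-07), and both were called lower, beside 11.3% of all genes called, 5.6% higher and 5.72% lower. C362A Mlkl Casp1 intestines remained above Mlkl, by 4.72-fold for Reg3b (log2 2.24 ± 0.29, adjusted p 5.56e-05) and 19.3-fold for Reg3g (log2 4.27 ± 0.33, adjusted p 3.15e-07), both called beside 10.5% of all genes called, 6.79% higher and 3.73% lower. Loss of Cflar from C362A Mlkl intestines raised Reg3b 2.47-fold (log2 1.30 ± 0.28, adjusted p 0.00525) and Reg3g 2.90-fold (log2 1.53 ± 0.28, adjusted p 0.00200), both called beside 6.06% of all genes called, 1.45% higher and 4.62% lower. C362A Cflar Mlkl intestines were thereby 429-fold above Mlkl for Reg3b (log2 8.75 ± 0.39) and 1244-fold for Reg3g (log2 10.28 ± 0.42), with adjusted p of 1.42e-09 and 7.02e-10, and both were called higher, beside 24.6% of all genes called, 13.4% higher and 11.2% lower. Reg3b ranked first of all genes by RPKM and by reads in all 3 C362A Cflar Mlkl embryos.

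**Figure D2:**
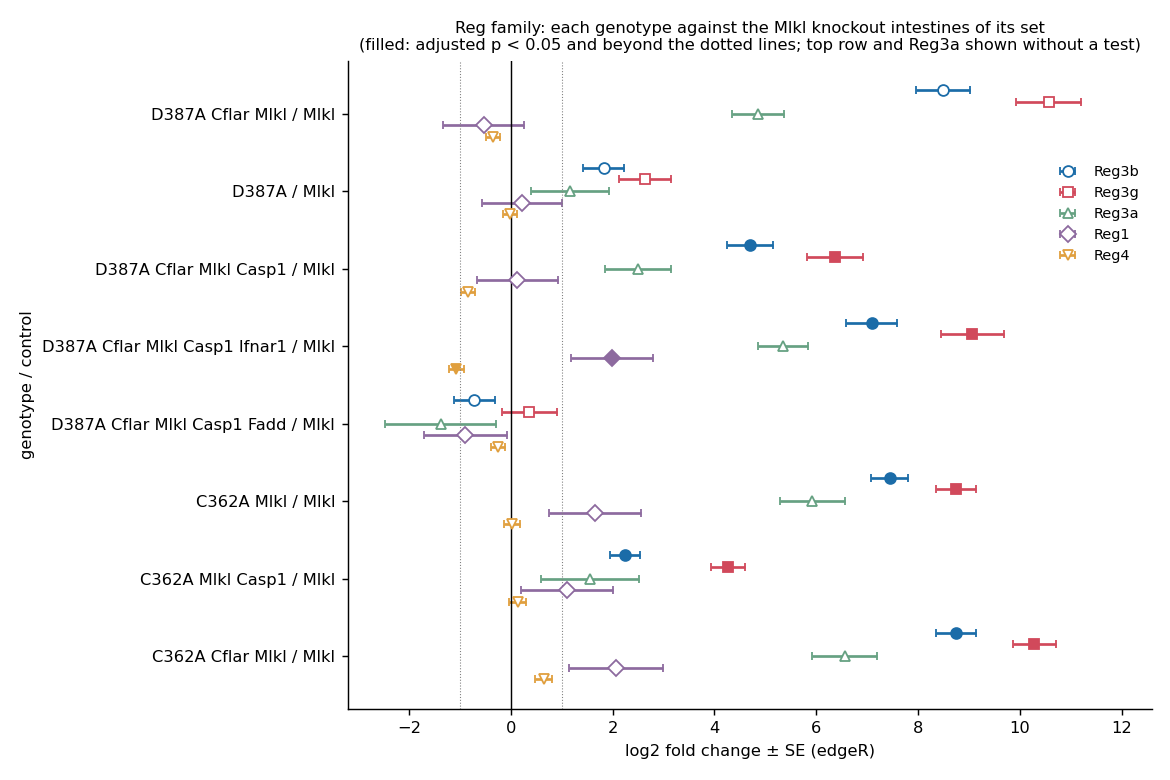
Log2 fold change (± SE, edgeR) of each Reg gene in 8 genotypes against the Mlkl intestines of the same set; filled symbols passed the call, dotted lines stand at a log2 fold change of 1 in either direction, and the top row, which chose the family, and Reg3a are drawn open, without a test. Reg3g lies right of Reg3b in every row, from 0.36 in D387A Cflar Mlkl Casp1 Fadd to 10.56 in D387A Cflar Mlkl.

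Whether loss of Casp1 acted differently in the 2 backgrounds was tested as an interaction over all 30 intestines. This contrast shares the D387A Cflar Mlkl libraries with the comparison that chose the family, which limits its p-values and calls. The difference, taken as the D387A minus the C362A effect, was 1.43 ± 0.50 for Reg3b (adjusted p 0.0507) and 0.31 ± 0.55 for Reg3g (adjusted p 0.738). edgeR called 0 of the 4 members Reg1, Reg3b, Reg3g and Reg4, beside 5.73% of the 19643 genes tested called, 4.9% higher and 0.825% lower, and Reg3b and Reg4 passed at an unadjusted p below 0.05, beside 6390 of the 19643 genes. Reg3b was called in DESeq2 (adjusted p 0.0496), with RLE size factors, with no filter and with a mean of at least 50 reads, beside 3.35 to 6.45% of all genes in these fits. It was also called when D387A Cflar Mlkl Casp1 embryo 1 or 2 or C362A Mlkl Casp1 embryo 2 was left out (1.74 to 1.82, adjusted p 0.0202 to 0.0238). Without the third D387A Cflar Mlkl Casp1 embryo, the difference was 0.48 ± 0.36 for Reg3b and -0.86 ± 0.36 for Reg3g. The backgrounds also differed in Cflar, which was absent from both D387A genotypes of this contrast and present in both C362A genotypes.

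**Figure D3:**
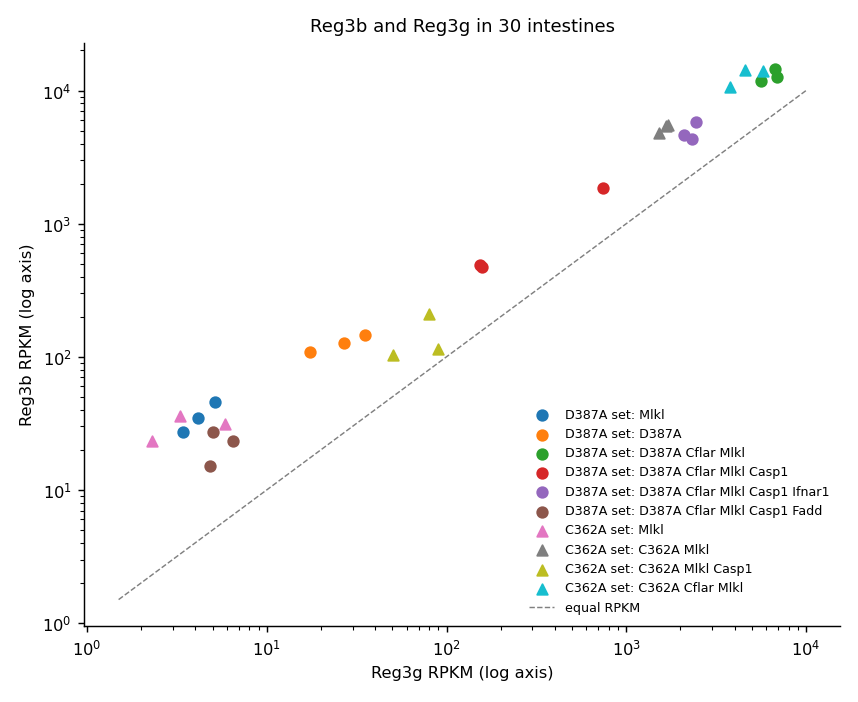
Reg3b against Reg3g in each of 30 intestines, both in RPKM on log axes, with a symbol for each genotype and a dashed line at equal RPKM. Reg3b exceeds Reg3g in all 30, and the ratio narrows from 8.05 to 8.84 in the Mlkl embryos of the D387A set to 1.83 to 2.15 in D387A Cflar Mlkl embryos.

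Reg3b and Reg3g did not rise in proportion. In the Mlkl embryos of the D387A set, the ratio of Reg3b to Reg3g RPKM was 8.44 ± 0.392 (SD, n = 3), and it was 5.05 ± 1.07 in D387A, 2.03 ± 0.170 in D387A Cflar Mlkl, 2.89 in D387A Cflar Mlkl Casp1, 2.15 in D387A Cflar Mlkl Casp1 Ifnar1 and 4.05 in D387A Cflar Mlkl Casp1 Fadd intestines. The C362A set gave 8.77 in Mlkl (range 5.33 to 10.9), 3.22 in C362A Mlkl (3.17 to 3.24), 1.99 in C362A Mlkl Casp1 (1.27 to 2.64) and 2.78 in C362A Cflar Mlkl (2.42 to 3.11). A low ratio was not limited to genotypes with high lectins: it was also found in C362A Mlkl Casp1 intestines, where Reg3b was 103 to 210.1 RPKM. In D387A Cflar Mlkl Casp1 Fadd intestines, with lectins near the level of Mlkl, it was 4.05 ± 1.20 (SD, n = 3), and every embryo was below the 8.05 to 8.84 of the Mlkl embryos of its own set. Pearson's r between log2 levels of the 2 genes was 0.995 over the 18 intestines of the D387A set and 0.984 over the 12 of the C362A set. These points share genotypes and libraries, and the values are a description.

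Reg3a, another lectin of the cluster, followed Reg3b and Reg3g at a small part of their level and was the lowest member in all 30 intestines. It had 2, 1 and 2 reads in Mlkl embryos (0.122, 0.0637 and 0.121 RPKM) and 61, 54 and 70 reads in D387A Cflar Mlkl embryos (3.19, 2.93 and 3.39 RPKM). It passed the filter on low counts only through its high genotypes, so its log2 fold changes are given as a description without a test, and it is not counted among the calls. Between these genotypes the log2 fold change was 4.86 ± 0.51. D387A intestines had 5, 1 and 7 reads and overlapped with Mlkl (log2 1.17 ± 0.76).

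With loss of Casp1 Reg3a had 4, 12 and 17 reads, below every D387A Cflar Mlkl embryo, a log2 difference of -2.35 ± 0.37. Against Mlkl the difference was 2.50 ± 0.64, and 2.02 ± 0.68 without the third D387A Cflar Mlkl Casp1 embryo. With loss of Ifnar1 in addition Reg3a had 72, 92 and 101 reads, or 3.70, 4.53 and 5.18 RPKM. Each of these exceeded all D387A Cflar Mlkl embryos, unlike Reg3b and Reg3g, which stayed below theirs. Summed pancreatic acinar markers were also higher here, at 71.4 to 176 CPM against 8.81 to 25.1 CPM in D387A Cflar Mlkl embryos. Mlkl embryos, with 1 to 2 reads of Reg3a, had acinar sums of 38.9 to 93.8 CPM. The part of pancreatic tissue in the Reg3a values was not tested. With loss of Ifnar1 the Reg3a level was 7.20-fold that of D387A Cflar Mlkl Casp1 (log2 2.85 ± 0.36). With loss of Fadd in addition Reg3a had 1, 1 and 0 reads, 2 in all against 33 in D387A Cflar Mlkl Casp1 embryos, which is 17.2-fold lower per read sequenced (95% counting interval 4.41 to 148).

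In the C362A set, Reg3a had 3, 1 and 2 reads in Mlkl, 120, 134 and 154 in C362A Mlkl, 7, 3 and 7 in C362A Mlkl Casp1 and 114, 386 and 105 in C362A Cflar Mlkl embryos. The C362A Mlkl and C362A Cflar Mlkl embryos overlapped, since only the second C362A Cflar Mlkl embryo was far above. Between C362A Mlkl and Mlkl the difference was 60.7-fold (log2 5.92 ± 0.64). The log2 difference with loss of Casp1 was -4.37 ± 0.55, and that of C362A Mlkl Casp1 from Mlkl was 1.55 ± 0.96. Loss of Cflar gave 0.63 ± 0.38, and without the second C362A Cflar Mlkl embryo that value turned to -0.21. C362A Cflar Mlkl exceeded Mlkl by 6.55 ± 0.63 (log2).

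Reg1, a lectin best known from the exocrine pancreas and stomach, varied widely within genotypes. In the D387A set it stood at 23.6, 23.6 and 74.0 RPKM in Mlkl, at 44.0, 29.1 and 68.1 in D387A, at 17.4, 4.05 and 61.9 in D387A Cflar Mlkl and at 5.68, 64.0 and 63.1 in D387A Cflar Mlkl Casp1 embryos. All these genotypes overlapped. It stood at 115, 215 and 153 in D387A Cflar Mlkl Casp1 Ifnar1 and at 9.65, 15.8 and 39.7 in D387A Cflar Mlkl Casp1 Fadd embryos, so that the Ifnar1-deficient embryos were above all others of this set. Against Mlkl, Reg1 was 3.98-fold higher in D387A Cflar Mlkl Casp1 Ifnar1 intestines (log2 1.99 ± 0.80, adjusted p 0.0493), a call that was lost in DESeq2 (adjusted p 0.0603) and when any of 5 embryos was left out: Mlkl embryo 1 or 2 (1.71 each) or any Ifnar1-deficient embryo. Against D387A Cflar Mlkl Casp1 the difference was 1.86 ± 0.80 (adjusted p 0.0854), and it was called in limma-voom (adjusted p 0.0285), with no filter (0.00990) and with the replicate number as a block (0.0228). The C362A set held 12.8, 14.0 and 20.5 in Mlkl, 21.4, 7.53 and 119.5 in C362A Mlkl, 27.6, 9.25 and 64.3 in C362A Mlkl Casp1 and 39.2, 143 and 15.8 in C362A Cflar Mlkl embryos. With low counts filtered and all embryos of the set fitted, edgeR called Reg1 in no comparison of that set. For C362A Cflar Mlkl against Mlkl (log2 2.07 ± 0.92, adjusted p 0.0728) it was called with no filter (0.00213), with only these groups fitted (0.0272) and without the third C362A Cflar Mlkl embryo (0.0255). C362A Mlkl against Mlkl gave 1.65 ± 0.91 (adjusted p 0.164), and was called with no filter (0.0190). The calls of Reg1 thus depended on the fit. The highest embryo of a genotype exceeded the lowest by a median of 5.53-fold for Reg1 over the 10 intestinal groups, against 1.45-fold for Reg3b, 1.52-fold for Reg3g and 1.30-fold for Reg4.

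Markers of the exocrine pancreas were high with Reg1 in some genotypes and not in others. The summed CPM of 13 acinar genes (Cpa1, Cela2a, Prss2 and others) was 38.9 to 93.8 in Mlkl, 8.81 to 25.1 in D387A Cflar Mlkl, 10.5 to 13.1 in D387A Cflar Mlkl Casp1 and 71.4 to 176 in D387A Cflar Mlkl Casp1 Ifnar1 embryos. In D387A Cflar Mlkl Casp1 the sums were thus low although 2 of its embryos had 63.1 and 64.0 RPKM of Reg1, and C362A Mlkl Casp1 embryos had sums of 15.4 to 23.3 with Reg1 up to 64.3 RPKM. With loss of Ifnar1, 8 of the 10 acinar genes tested were called higher, beside 3.28% of all genes. Among C362A Cflar Mlkl embryos the sums were 61.5, 251 and 23.2, and the second embryo was also the highest for Reg1. In the D387A set the third Mlkl embryo, which had 74.0 RPKM of Reg1 against 23.6 in each of the others, had a summed CPM of 235 for 10 stomach markers (Gkn1, Tff1, Muc5ac and others) against 6.81 and 7.04. Pearson's r of Reg1 with the acinar sum was 0.727 over 18 and 0.663 over 12 intestines, and that of Reg3b was -0.121 and 0.434. The part of pancreatic or stomach tissue in the Reg1 values was not tested. In addition, 3.74% of the 855 windows of 50 bases in Reg1 exons had identical copies in other genes. The authors kept only uniquely mapped reads, so reads of such windows may be missing from the counts. No window of a member came within 2 mismatches of another Reg gene.

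**Figure D4:**
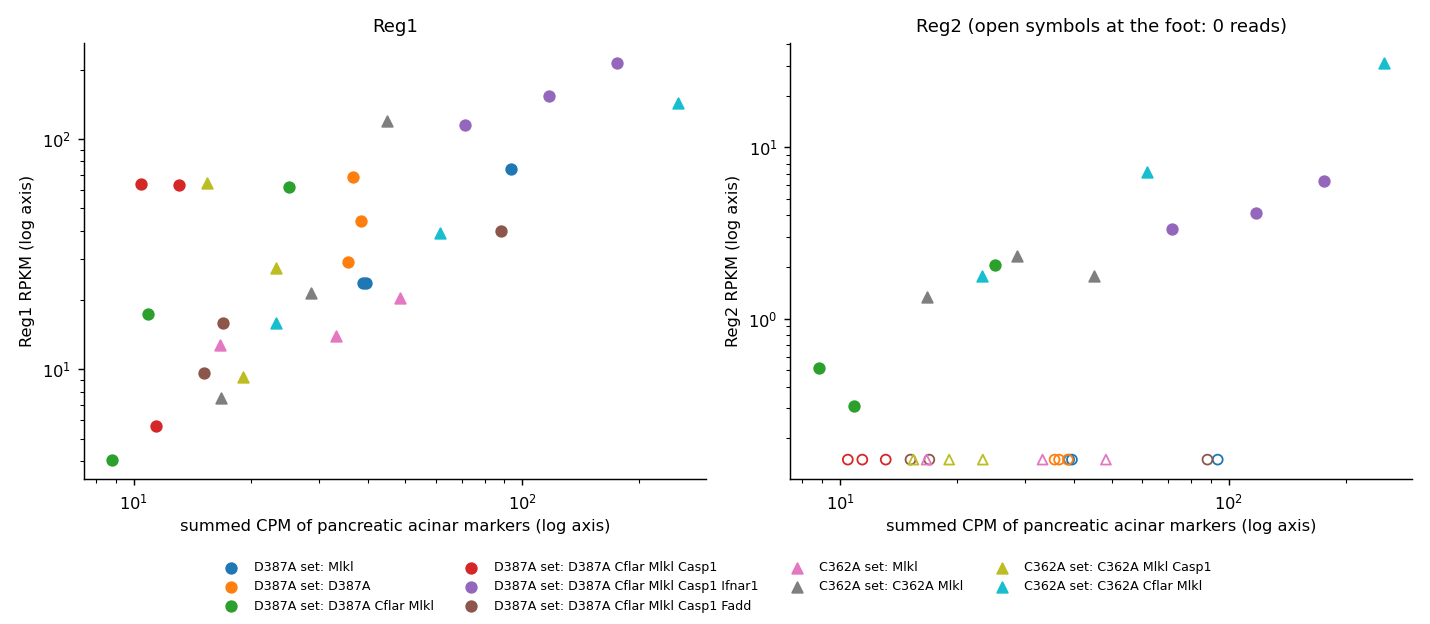
Reg1 (left) and Reg2 (right) RPKM of each intestine against the summed CPM of 13 pancreatic acinar genes, on log axes, with a symbol for each genotype and open symbols at the foot for 0 reads. Reg1 is at 115 to 215 RPKM in the Ifnar1-deficient embryos, whose acinar sums are 71.4 to 176 CPM, and at 143 in the second C362A Cflar Mlkl embryo, whose sum is 251, and Reg2 has reads in 4 genotypes.

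Reg2, the closest neighbour of Reg1, was found in 4 genotypes and had 0 reads in all 18 libraries of the other 6. It had 5, 8 and 36 reads in D387A Cflar Mlkl, 55, 109 and 68 in D387A Cflar Mlkl Casp1 Ifnar1, 45, 26 and 34 in C362A Mlkl and 124, 590 and 34 in C362A Cflar Mlkl embryos. The 4 genotypes with reads were those in which every embryo had 4307 RPKM of Reg3b or more. Set against 3 reads over the 3 control libraries, Reg2 was at least 33.2-fold higher in C362A Mlkl than in Mlkl intestines. It was at least 30.8-fold lower with loss of Casp1 in the C362A set and at least 70.2-fold higher with loss of Ifnar1. No such bound is given for D387A Cflar Mlkl and C362A Cflar Mlkl intestines, where the third and the second embryo held most of the reads. Reg3d was rarer, with 9 to 18 reads in D387A Cflar Mlkl Casp1 Ifnar1, 4 to 18 in C362A Mlkl, 10 to 78 in C362A Cflar Mlkl, 1 to 4 in C362A Mlkl Casp1 and 0 to 3 in all other intestines. It had 27 reads over the C362A Mlkl embryos, 18 of them in the third, against 1 over the Mlkl embryos of that set.

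In the D387A set Reg4, the member outside the cluster, was lowest in D387A Cflar Mlkl Casp1 and D387A Cflar Mlkl Casp1 Ifnar1 intestines. It stood at 71.5, 77.4 and 77.0 RPKM in Mlkl, at 77.0, 70.3 and 75.8 in D387A and at 58.2, 49.2 and 69.4 in D387A Cflar Mlkl embryos, the last below all Mlkl embryos. The log2 fold change between the last genotype and Mlkl was -0.35 ± 0.14, given without a test. Levels were 35.0, 46.3 and 44.6 in D387A Cflar Mlkl Casp1 and 32.6, 33.7 and 41.5 in D387A Cflar Mlkl Casp1 Ifnar1 embryos, all below every other embryo of the set, and 60.4, 75.5 and 53.3 with loss of Fadd. Against Mlkl, Reg4 fell by 1.07 ± 0.14 (adjusted p 1.37e-05) in D387A Cflar Mlkl Casp1 Ifnar1 intestines, the only comparison that called it. Differences under the fold threshold had adjusted p of 5.91e-04 in D387A Cflar Mlkl Casp1 against Mlkl (-0.84 ± 0.14), 0.00835 with loss of Casp1 (-0.49 ± 0.14) and 0.00820 with loss of Fadd (0.59 ± 0.14). The test of Casp1 loss shares the D387A Cflar Mlkl libraries with the comparison that chose the family. Summed enteroendocrine markers, from cells in which Reg4 is known, were 554 to 630.0 CPM in D387A Cflar Mlkl Casp1 Ifnar1, 348 to 519 in D387A Cflar Mlkl Casp1 and 347 to 447 in Mlkl intestines.

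In the C362A set Reg4 stood at 57.4, 90.7 and 76.6 in Mlkl, at 62.5, 87.4 and 78.3 in C362A Mlkl, at 89.5, 78.0 and 78.9 in C362A Mlkl Casp1 and at 117, 131 and 104 in C362A Cflar Mlkl embryos. Only the last genotype stood clear of the rest. It exceeded Mlkl by 0.65 ± 0.16 (log2, adjusted p 0.00404) and C362A Mlkl by 0.62 ± 0.16 (adjusted p 0.0157), both under the fold threshold. The direction of Reg4 in the Cflar-deficient genotypes thus differed between the sets, -0.35 in one and 0.65 in the other, though the sets were not tested against each other for this. Over embryos, r of Reg4 with Reg3a, Reg3b and Reg3g was -0.57, -0.57 and -0.60 in the D387A set and 0.51, 0.54 and 0.56 in the C362A set.

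The 5 members together took a changing share of all gene reads. They took 0.0141% of reads in Mlkl (0.0120 to 0.0177%), 0.0222% in D387A and 1.72 ± 0.143% (SD, n = 3) in D387A Cflar Mlkl intestines. The share was 0.113% in D387A Cflar Mlkl Casp1 (0.0615% without the third embryo), 0.573% in D387A Cflar Mlkl Casp1 Ifnar1 and 0.00979% in D387A Cflar Mlkl Casp1 Fadd intestines. In the C362A set it was 0.0111% in Mlkl, 0.578% in C362A Mlkl, 0.0245% in C362A Mlkl Casp1 and 1.61 ± 0.290% in C362A Cflar Mlkl intestines. Reg3b and Reg3g made up 17.3 to 29.6% of the family's reads in the Mlkl embryos of the D387A set, where Reg4 was the most abundant member per length, and 99.1 to 99.6% in D387A Cflar Mlkl embryos. Reg3b was the highest member per length in 21 of 30 intestines and Reg4 in the other 9.

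**Figure D5:**
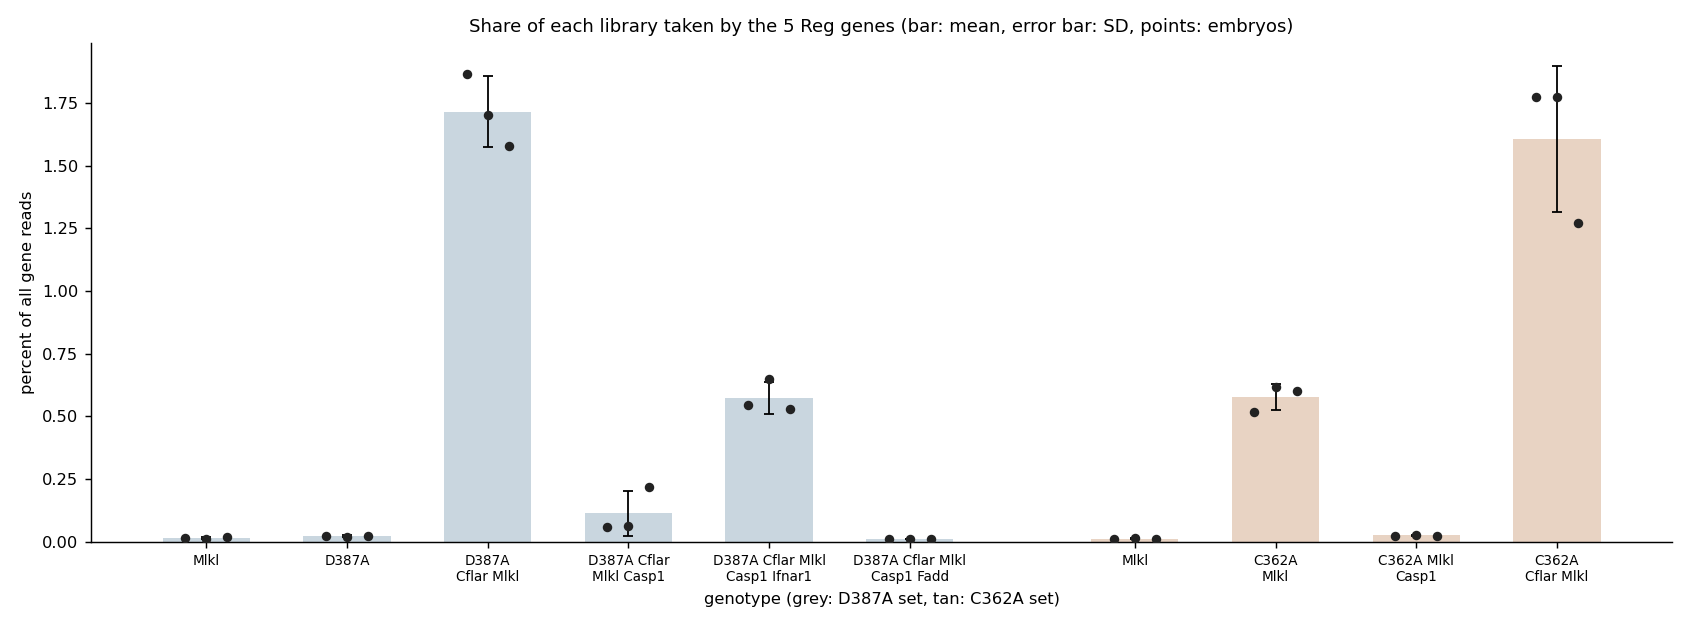
Share of all gene reads taken by the 5 Reg genes in each genotype, in percent; bars are means, error bars SD, and points the 3 embryos. The share is 1.58 to 1.86% in D387A Cflar Mlkl and 1.27 to 1.77% in C362A Cflar Mlkl intestines, and 0.00878 to 0.0177% in the Mlkl and Fadd-deficient embryos of the D387A set.

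Within each set the genotypes could be ordered by mean level. In the D387A set the order for Reg3g ran from D387A Cflar Mlkl through D387A Cflar Mlkl Casp1 Ifnar1, D387A Cflar Mlkl Casp1 and D387A, each apart from the next, to D387A Cflar Mlkl Casp1 Fadd and Mlkl, which overlapped. For Reg3b the order was the same down to D387A, followed by Mlkl and then D387A Cflar Mlkl Casp1 Fadd, and no neighbours overlapped. Reg3a was highest in D387A Cflar Mlkl Casp1 Ifnar1, then in D387A Cflar Mlkl and in D387A Cflar Mlkl Casp1, each of these apart from the one before it, and embryos of the other genotypes held 7 reads or fewer. For Reg1 the Ifnar1-deficient genotype was set apart from the rest, whose neighbours in the order overlapped. Among the C362A genotypes both Reg3b and Reg3g decreased from C362A Cflar Mlkl through C362A Mlkl and C362A Mlkl Casp1 to Mlkl without overlap of neighbours, whereas neighbours overlapped for Reg1.

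Some cell-type markers moved with the lectins. The summed CPM of 12 enterocyte markers (Alpi, Fabp1, Sis and others) was 49910.0 to 57244 in Mlkl and 60842 to 62671 in D387A embryos. It was 2656 to 4942 in D387A Cflar Mlkl, 27072 to 37767 with loss of Casp1, 32290.1 to 44545 with loss of Ifnar1 and 54902 to 60721 with loss of Fadd. In the C362A set it was 44619.8 to 67871 in Mlkl, 22365 to 28045 in C362A Mlkl, 66593 to 82511 in C362A Mlkl Casp1 and 4206 to 11908 in C362A Cflar Mlkl embryos. In each set the genotype with the most Reg3b thus had the least enterocyte marker RNA, with r of Reg3b to the enterocyte sum of -0.746 over 18 and -0.841 over 12 embryos. Summed Paneth markers were 14.8 to 64.0 CPM in Mlkl, 271 to 327 in D387A Cflar Mlkl, 49.3 to 102 in D387A Cflar Mlkl Casp1 and 121 to 164 in D387A Cflar Mlkl Casp1 Ifnar1 embryos, and 55.0 to 74.6 in Mlkl, 290.4 to 376 in C362A Mlkl, 63.3 to 152 in C362A Mlkl Casp1 and 333 to 881 in C362A Cflar Mlkl embryos. Summed goblet markers were 1038 to 2276 in Mlkl, 2867 to 3997 in D387A Cflar Mlkl, 1656 to 3287 in D387A Cflar Mlkl Casp1 and 4594 to 5922 in D387A Cflar Mlkl Casp1 Ifnar1 embryos, and 1839 to 2407 in Mlkl, 4025 to 4172 in C362A Mlkl, 1918 to 3948 in C362A Mlkl Casp1 and 3915 to 4280.0 in C362A Cflar Mlkl embryos. Summed neutrophil markers were 3.88 to 22.6 in Mlkl and 35.7 to 127 in D387A Cflar Mlkl embryos. They were 7.64 to 16.4 in D387A Cflar Mlkl Casp1 and 14.5 to 24.6 in D387A Cflar Mlkl Casp1 Ifnar1 embryos, sums that overlapped with Mlkl. Of the 7 neutrophil genes tested, 3 were higher and 2 lower in D387A Cflar Mlkl Casp1 Ifnar1 than in Mlkl intestines, beside 6.76% and 5.64% of all genes. The C362A set gave up to 29.6 in Mlkl, 287 to 360.4 in C362A Mlkl, 14.7 to 18.1 in C362A Mlkl Casp1 and 150.0 to 252 in C362A Cflar Mlkl embryos. Summed stem-cell markers (Lgr5, Olfm4 and others) were 308 to 318 in Mlkl, 638 to 943 in D387A Cflar Mlkl, 365 to 368 in D387A Cflar Mlkl Casp1 and 408 to 513 in D387A Cflar Mlkl Casp1 Ifnar1 embryos. They were 266 to 322 in Mlkl, 287 to 326 in C362A Mlkl and 457 to 937 in C362A Cflar Mlkl embryos. Summed macrophage markers were 416 to 447 in Mlkl, 382 to 516 in D387A Cflar Mlkl and 646 to 749 in D387A Cflar Mlkl Casp1 Ifnar1 embryos, and 381 to 453 in Mlkl, 741 to 760.0 in C362A Mlkl, 575 to 623 in C362A Mlkl Casp1 and 489 to 610 in C362A Cflar Mlkl embryos. The part of these shifts in the Reg levels was not tested.

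Other antimicrobial and acute-phase genes of the gut were counted in a list of 19, of which Lyz1, Ang4 and Itln1 are also among the Paneth markers and Zg16 among the goblet markers. In C362A Mlkl against Mlkl, 16 of 19 rose and 0 fell, beside 10.4% and 7.55% of all genes, with Duoxa2 (8.67 ± 0.30) and Duox2 (8.32 ± 0.37), the parts of an epithelial hydrogen peroxide source, and the acute-phase protein gene Saa3 (8.14 ± 0.29) highest on the log2 scale. The median of the list was 3.64 and that of all genes 0.02. Loss of Casp1 there lowered 10 of 19 and raised 0, beside 5.72% and 5.6% of all genes, led by the goblet-cell product Retnlb (-5.76), the Paneth-cell ribonuclease Ang4 (-5.06) and Duox2 (-4.77). In C362A Mlkl Casp1 intestines 8 were above Mlkl, beside 6.79% of all genes, with Saa3 at 6.29. In C362A Cflar Mlkl intestines 18 were above Mlkl, beside 13.4%. Loss of Cflar from C362A Mlkl raised 1 and lowered 1, beside 1.45% and 4.62%; the number raised was 0 without the first and 3 without the third C362A Cflar Mlkl embryo. The same list in the D387A set had 18 genes tested. None was called in D387A intestines, beside 0.00545% of all genes, so nothing is read from this. In D387A Cflar Mlkl Casp1 8 were above and 1 below Mlkl, beside 2.16% and 2.18% of all genes. Without the third embryo of that genotype 5 were above, and with only these groups fitted 3 were above and 0 below. Loss of Casp1 lowered 11 and raised 1 (Retnlb -5.54, Ang4 -4.12, Duox2 -3.59), beside 4.51% and 8.88%; the 1 raised was lost without D387A Cflar Mlkl embryo 2 or 3 or D387A Cflar Mlkl Casp1 embryo 3. Further loss of Ifnar1 raised 12 and lowered 0 (Retnlb 3.41, Zg16 2.65, Duox2 2.34), beside 3.28% and 2.03%. That 12 became 6 and 7 without D387A Cflar Mlkl Casp1 embryo 1 and 2, and 4 with only these groups fitted, where Zg16 and Duox2 lost their calls (adjusted p 0.0587 and 0.134). Further loss of Fadd lowered 5 and raised 1 (Duox2 -4.35, Saa3 -3.70, Nos2 -2.53), beside 0.877% and 2.56%. The 5 became 3 in limma-voom, in DESeq2 and without D387A Cflar Mlkl Casp1 Fadd embryo 1, and 1 with only these groups fitted, where Duox2 and Nos2 lost their calls (adjusted p 0.0682 and 0.0539). With no filter on low counts it became 8. The 1 raised became 0 without D387A Cflar Mlkl Casp1 embryo 1 or 2 or D387A Cflar Mlkl Casp1 Fadd embryo 1 and with only these groups fitted. It became 3 without D387A Cflar Mlkl Casp1 embryo 3, and 2 without D387A Cflar Mlkl Casp1 Fadd embryo 3, in limma-voom and with no filter. In D387A Cflar Mlkl Casp1 Fadd intestines, where no Reg gene was called, 4 of these 18 were above Mlkl, beside 2.81% of all genes, with Nos2 (4.02), Saa3 (3.80) and Lypd8 (2.38) farthest. These lists, like the family, were chosen with earlier results of these data known.

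Of 11 cytokine genes known to induce Reg genes, 9 were tested. Il22 was not among them: its mean was at most 0.0869 RPKM in any intestinal group. In C362A Mlkl against Mlkl 6 rose and 0 fell, beside 10.4% and 7.55% of all genes, led by Tnf (5.07 ± 0.41), Il1b (4.99 ± 0.33) and Il6 (4.03 ± 1.46). Il6 lost its call without any 1 of the 6 libraries of that comparison (adjusted p 0.0547 to 0.118). Loss of Casp1 lowered 4 of 9 in each set, beside 5.72% of all genes in the C362A and 4.51% in the D387A set, with Il1b at -4.60 in C362A Mlkl and -3.40 in D387A Cflar Mlkl intestines. In the D387A set the number lowered was 3 to 5 with an embryo left out and 1 when only genes with a mean of at least 50 reads were tested, and up to 2 were raised with an embryo left out; in the C362A set it was 3 to 5 over all fits. Loss of Ifnar1 raised 3 (Il6, Tnf and Il1b), beside 3.28% of all genes, and each of these calls was lost without at least 1 embryo of the comparison. Loss of Fadd lowered 3 (Il17c -2.27, Tnf -1.63, Il1b -1.33), beside 0.877%, all lost without the third D387A Cflar Mlkl Casp1 embryo. Among 14 receptor genes, C362A Mlkl intestines had 6 higher and 1 lower than Mlkl, beside 10.4% and 7.55% of all genes, and 2 lower without the first Mlkl embryo. Il22ra1, which encodes the epithelial chain of the IL-22 receptor, was at 26.9 RPKM in Mlkl, 28.2 in C362A Mlkl and 12.2 in C362A Cflar Mlkl intestines, and loss of Cflar lowered it by 1.21 ± 0.22 (log2, adjusted p 0.00202), a call lost without the second C362A Cflar Mlkl embryo (-0.94), while Reg3b and Reg3g rose. Of 6 transducers, Myd88 (1.51 ± 0.11) and Nod2 (1.99 ± 0.17) were called in C362A Mlkl, and Stat3 was not (0.51 ± 0.13). Stat3 and Il22 were named after their values were seen. Socs3, the feedback inhibitor of STAT3 signalling, fell with loss of Casp1 by 1.18 ± 0.08 in the D387A set and by 1.46 ± 0.18 in the C362A set. No gene of these pathway lists was called in D387A against Mlkl intestines, beside 0.00545% of all genes, so nothing is read from this.

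The genes most alike in pattern to each member were found by the lower of their Pearson r over the 18 and the 12 intestines, on log2(CPM + 0.5), among 18191 genes. Reg3b was nearest to Tnip3 (0.965), Pqlc1, Duox2, Csf2rb and Capg, and Reg3g to Tnip3 (0.974), Nox1, Duox2, 1700066B19Rik and Ffar4. Reg3a was nearest to Lbp (0.944), Ncf4, Capg, R3hdml and Duox2. Reg1 was nearest to Prss1 (0.682), Gm10334, Gkn3, Cpa1 and Cela2a, most of which are pancreatic or gastric genes. Reg4 was nearest to Gm10704 (0.682), Fhl1, Rpl18-ps1, Asnsd1 and Ltc4s. These correlations run over libraries that share genotypes and are descriptions.

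MEFs held almost no reads of the family. A total of 3 member reads were counted in 6 libraries, 1 in each of 3 of them and all from Reg3g, and no member passed the filter, so none was among the 15465 genes tested, of which 0.0711% were called. A count of 3 reads corresponds to 0.0929 to 0.143 CPM in these libraries, below which a level was not detectable; this covers counting error only. The goblet and Paneth marker sums were at most 0.468 and 0.24 CPM, and fibroblast markers (Col1a1, Pdgfrb and others) summed to 22715 to 25888 CPM. Any difference of the family between D387A Cflar Mlkl and Mlkl fibroblasts was thus not detectable at this depth, beside the 1.58 to 1.86% of reads in D387A Cflar Mlkl intestines.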

How the data were processed

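Poly(A) RNA of 36 libraries was sequenced as single-end 50-base reads; the methods and the labels name different kits and instruments, and whether the counting used strand is not given in the sources used here. The authors aligned reads with GSNAP to GRCm38 and deposited, for each library, read counts per Ensembl gene and RPKM values. The deposited counts were used for all levels and tests; the RPKM deposited by the authors were used only to check totals.

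Members and lists were chosen with earlier results of these data known. Named genes were the 5 members, Reg2 and Reg3d, up to 3 called genes with the largest fold change per pathway list and comparison, and the 5 genes most alike to each member. Levels were computed as RPKM from counts, exonic length and library sizes scaled by TMM within each set. Differences were tested on counts with edgeR 4.0.16 (R 4.3.3), a quasi-likelihood fit per set after low counts were filtered (minimum 10, total 15), and p-values were adjusted by Benjamini-Hochberg over all genes tested. The Casp1 interaction was fitted over all 30 intestines. limma 3.58.1 (voom), DESeq2 1.42.0, other size factors and filters, pooled controls, 2-group fits and fits without each embryo were alternatives. The test was first checked on simulated data with known changes. The p-values set a difference against the spread between embryos of a genotype. That spread was estimated over all genotypes fitted together, including those outside the comparison, and moderated across genes. Counting intervals and floors cover counting error only. A table of RefSeq promoters (GRCm38.p6) gave the sequences, and all 7 family genes were matched.

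Same-numbered embryos were not treated as pairs: in the D387A set 9 of 45 pairs of groups had a correlation of deviations above 0.1, and in the C362A set 3 of 18. In the MEFs 3 of 3 did, where no member was tested.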

Additional observations from a re-analysis of the deposited data

How the results depend on the processing

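Leaving out Reg3a and the comparison that chose the family, which have no test, 417 log2 fold changes of members kept their direction and call under the alternatives that used every embryo, 17 gained a call, 1 lost it and 5 changed sign; the cause was not tested. The last were Reg1 in D387A Cflar Mlkl Casp1 against Mlkl (-0.29 in limma-voom), Reg4 in C362A Mlkl against Mlkl (-0.00154 in DESeq2, -0.00157 with RLE size factors), Reg3g in the Casp1 interaction (-0.0656 in limma-voom), and, with the Mlkl controls of both sets pooled, Reg4 in D387A (0.00689). In the comparison that chose the family Reg1 also turned, to 0.0188, with pooled controls. For D387A against Mlkl the number of members called, 0, became 1 in DESeq2 and 2 with no filter, with only these groups fitted or with pooled controls. All genes were called at 0.0153 to 0.0422% in these fits. For the Casp1 interaction it became 2 in DESeq2, 1 with RLE size factors, 2 with no filter and 2 with a mean of at least 50 reads, beside 3.35 to 6.45% of all genes. These interaction counts include Reg3a, which passed the filter only through its high genotypes.

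When each embryo was left out in turn, the interaction count ranged from 0 to 2, beside 4.2 to 8.04% of all genes. Values that changed sign ranged for Reg1 from -1.91 to 0.24 in D387A Cflar Mlkl, from -0.15 to 1.00 in D387A and from -0.24 to 0.91 in D387A Cflar Mlkl Casp1 against Mlkl. In the C362A set Reg1 ranged from -0.12 to 2.16 in C362A Mlkl against Mlkl, from -1.43 to 1.22 with loss of Casp1 and from -0.85 to 2.19 with loss of Cflar. The interaction ranged from -0.54 to 2.61 for Reg1 and from -0.86 to 0.66 for Reg3g. Reg4 ranged from -0.0551 to 0.0198 in D387A, from -0.16 to 0.17 in C362A Mlkl, from -0.0579 to 0.27 in C362A Mlkl Casp1 and from -0.0128 to 0.22 with loss of Casp1 there, and Reg3a from -0.21 to 0.95 with loss of Cflar.

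With the replicate number as a block, Reg1 was called with loss of Ifnar1 (2.12 ± 0.64, adjusted p 0.0228); the block changed no other member's call. The numbers do not pair these embryos.

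Depth limits Reg3a, Reg2 and Reg3d most, since their control libraries held 0 to 3 reads.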
